A study of Citrus sinensis with 10 samples.

Results

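A set of 53 cDNA clones was at least 2-fold higher in fruit of Hong Anliu than in fruit of Anliu at both 120 and 170 days after flowering. They are 53 of the 5856 clones on the arrays. Hong Anliu is a bud mutant of sweet orange (Citrus sinensis), and Anliu is its wild type. A clone entered the set when its log2 ratio, mutant over wild type, was at least 1 on both dye-swapped arrays of day 120 and on both of day 170. A further condition removed clones that met the same threshold at both 150 and 190 days, and it removed 0 clones. The members were thus chosen by the ratios of 120 and 170 days, which are given as a description, without a test.

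Fruit of both genotypes was compared at 120, 150, 170, 190 and 220 days, and the labels name 1 mutant and 1 wild-type RNA per day, both on 2 arrays. The mutant carried Cy5 on one array and Cy3 on the other, so the groups are 5 days of mutant RNA against wild-type RNA, each measured on the same glass. The labels do not say how many fruits or trees an extract came from, and the RNA was amplified before labelling, per the labels' protocols. Because the fruit tissue holds many cell types, fewer cells of a type and less RNA per cell cannot be told apart in any of these values.

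As background, a bud mutation arises in a shoot of a grown tree and is kept by grafting, so mutant and wild type share nearly all of their genome. The red flesh of citrus mutants of this kind comes from lycopene, a red carotenoid that most oranges convert onward to yellow and orange carotenoids. During the months sampled here, sweet orange fruit enlarges, accumulates sugars, loses acid and changes colour. The clones came from a study of genes related to the bud mutation and are named by plate, row and column. None of the 5856 names matched a gene in the table at hand, so no member is tied here to a gene or to a place in the carotenoid pathway, and the tissue could not be checked against markers.

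Median clone intensities ranged over the arrays between 1036 and 3959 for the mutant and between 2187.5 and 4555.5 for the wild type, and precision is limited by there being 2 arrays per day. Ratios are read against the typical clone on the same array. Across all clones the ratios of day 170 ran against those of day 220 (r = -0.51) and day 150 (r = -0.31), and those of day 120 against those of day 220 (r = -0.38). An exchange of the genotypes on day 170 was not tested here. With the sign on day 170 turned, the members stood at a median of -1.39 there, and the same rule chose 61 clones, none of them among the 53.

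The members' ratios ran a largely common course over the 5 days. Their median log2 ratio was 1.46 ± 0.20 on day 120 (SD over the 53 clones), 0.20 ± 0.42 on day 150, 1.39 ± 0.21 on day 170, -0.79 ± 0.41 on day 190 and -1.12 ± 0.32 on day 220. The set thus stood above the typical clone on the days that chose it, close to it on day 150, and below it on the last 2 days. The arrays of a day gave nearly the same medians. With the mutant in Cy5 they were 1.45, 0.16, 1.37, -0.78 and -1.04 at the successive days, and with the mutant in Cy3 they were 1.47, 0.22, 1.42, -0.80 and -1.14. For a single member, the dye-swapped arrays of a day differed by a median SD of 0.077. This is the error of labelling and hybridisation, and it leaves out the spread between extracts, which 1 pair of RNAs per day does not show.

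**Figure D1:**
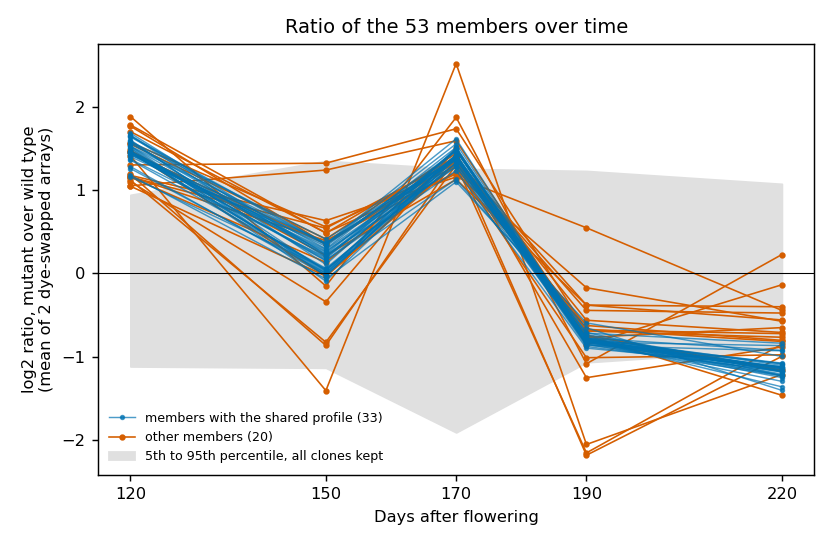
Mean log2 ratio of mutant over wild type (y axis) at each day after flowering (x axis) for the 53 members, 1 line per clone, with the 33 clones of the shared profile in blue, the other 20 in orange and the 5th to 95th percentile of 5852 clones as a grey band. The blue lines stay close together and lie mostly above the band at 120 and 170 days, inside it near the lower edge on day 190 and mostly at or below that edge on day 220.

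The days that did not choose the members, 150, 190 and 220, show where the set stood at other times. On day 220, which the rule did not use at all, 28 of the 53 members were 2-fold lower in the mutant on both arrays and 0 were 2-fold higher. Over the 5852 clones with signal above background, 2.19% were 2-fold lower and 4.37% were 2-fold higher on day 220. On day 190, 4 members were 2-fold lower, against 4.8% of all clones, and 0 were higher, against 6.22%. The 4 became 9 without the arrays with the mutant in Cy5, 14 with centring on the control spots and 36 without normalization. The typical clone was also lower on day 190 then, at a median of -0.20 with control centring and -0.34 without normalization. The shares of all clones under these settings are not given here, so the 3 counts have no background beside them. On day 150, 2 members were 2-fold higher and 1 was lower, against 7.18% and 5.55% of all clones, so the members' shares there were at or below the background. On the days of the rule, 3.62% of all clones were 2-fold higher and 5.19% lower on day 120, and 7.95% higher and 17.1% lower on day 170.

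The sign was more uniform than the 2-fold counts. On day 190, 52 of the 53 members were below 0 on both arrays, against 2503 of the 5852 clones kept. On day 220, 52 members were, against 2575 of the clones kept. In 51 members all 4 arrays of these days were below 0, as in 18.3% of all clones. These counts have 1 pair of extracts per day behind them and no test. The 2-fold count on day 220 depends on the normalization: it was 9 with median centring, 14 with a loess within printing blocks and 14 in the authors' series table. Both without normalization and with centring on the control spots it was 0. The typical clone then stood at a median of 0.63 without normalization and 1.09 with control centring. The members' median on day 220 was then -0.32 and 0.02, so its sign also depended on the centre. Shares of all clones under these settings are not given here.

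**Figure D2:**
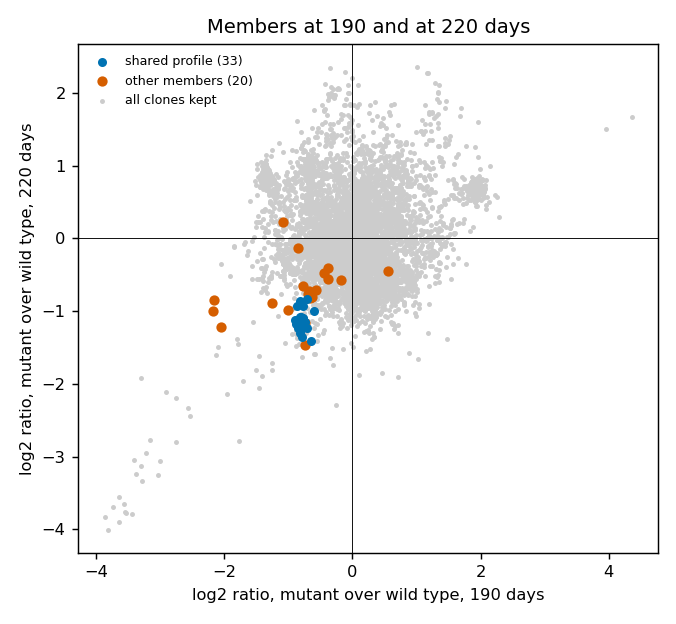
Mean log2 ratio of mutant over wild type on day 190 (x axis) against day 220 (y axis), 1 point per clone, for members of the shared profile in blue, the other members in orange and all clones kept in grey. The blue points form 1 tight cluster with both ratios below 0, and most orange points also lie below 0 on both days.

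Clones that passed the threshold on only 1 of the choosing days also had medians below that of all clones on day 220. Over all clones kept, the median there was -0.06 and 2.19% were 2-fold lower. Of the 160 other clones 2-fold higher on day 120, 5 were 2-fold lower on day 220 (3.12%), and their median ratio there was -0.47. Of the 412 other clones 2-fold higher on day 170, 19 were 2-fold lower on day 220 (4.61%), with a median of -0.40. These are counts of clones on the same arrays, and clones are not replicates. The differences from the members and from all clones were thus not tested.

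The test over the days that did not choose the members called 1 of them. In limma, the mean log2 ratio over 150, 190 and 220 days was tested on 3 values per clone, 1 per day, over 5847 clones. Clone 17.D.8 had a mean of -1.56 ± 0.44 (SD, n = 3 days) with an adjusted p of 0.0497 in limma. Over all clones 34 were called lower (0.581%) and 23 higher (0.393%). Without adjustment, at p under 0.05 in limma, 4 members were lower and 0 higher, against 4.93% and 10.3% of all clones, so the share of lower members is near the background. The count before adjustment depended on the days used. Without day 150, 36 members were lower, against 2.62% of all clones, and 1 was called. Without day 190, 2 members were lower, against 1.66% of all clones, and 0 were called. Without day 220, 4 members were lower, against 14.9% of all clones, 1 was higher, and 3 were called. The median of this mean was -0.57 over the members and -0.03 over all clones, and 52 of 53 members were below 0, against 54.7% of all clones. The call of 17.D.8 sits at the threshold. Its adjusted p in limma ranged between 0.00933 and 0.379 over the alternatives, and it was not called without 190 days (0.0716), nor with either array of each day left out (0.0539 and 0.0743).

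Many members followed a shared profile, and how many depended on the distance and on the processing. On every day 33 of the 53 lay within 0.3 (log2) of the members' median. Among all clones of the arrays, 34 met this distance on all 5 days, and the one that was not a member was 42.A.5. The distance on days 120 and 170 nearly equals the rule itself, since 43 of the 44 clones that met it on these days were members. The distance was chosen after the values were seen. At a distance of 0.2 the profile held 21 members and no other clone, and at 0.5 it held 41 members and 1 other clone. In the authors' series table it held 15 at 0.3.

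The filter on distance limits how far the 33 clones can differ, so their spread is a description. Their medians were 1.47 ± 0.13 on day 120 (SD over the 33 clones), 0.18 ± 0.15 on day 150, 1.40 ± 0.11 on day 170, -0.80 ± 0.06 on day 190 and -1.15 ± 0.12 on day 220.

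The members' own median on the days that did not choose them was also compared with all clones. Within 0.3 of the members' median at 150, 190 and 220 days lay 48 clones of the whole array, of which 34 were members. Of these 48 clones, 42 had a mean ratio above 0.5 at both 120 and 170 days. The 34 members among them met this by the rule, so only the other clones add to it. The share of all clones above 0.5 on both days is not given here. Tight groups of like profiles are common on these arrays. Of the 991 clones that were 2-fold different on at least 2 days, 313 had at least 20 other clones within 0.3 on all 5 days, and 21 of these 313 were members. The files do not say whether such clones share a transcript.

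Clone 54.D.5 shows the profile with values close to the median. Its log2 ratios on the 2 arrays of a day were 1.64 and 1.502 on day 120, 0.13 and 0.46 on day 150, 1.52 and 1.51 on day 170, -0.76 and -0.90 on day 190, and -1.11 and -1.19 on day 220. The dye-swapped arrays gave the same side of 0 on every day, which the rule required on days 120 and 170. Clone 40.C.3 stood at 1.56 and 1.65 on day 120, -0.21 and 0.15 on day 150, 1.43 and 1.44 on day 170, -0.80 and -0.78 on day 190, and -1.13 and -1.21 on day 220. Only on day 150 did its arrays fall on both sides of 0. With loess within printing blocks the mean of 40.C.3 on day 120 was 0.97, below the threshold of 1, so it did not meet the rule there. In the authors' series table it was 1.01. The mean of 54.D.5 on day 120 was 1.48 under both. Clones 30.F.9 and 39.H.1, also among the 5 members with the largest smallest ratio, had means of 1.53 and 1.66 on day 120, 1.51 and 1.49 on day 170 and -1.36 and -1.25 on day 220.

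The deposited intensities show how much the ratio on day 120 rests on the normalization. For 40.C.3 the mutant intensity was 9058 and 11710 on the arrays of day 120, against 9847 and 6136 for the wild type. On day 170 it was 12639 and 11967 for the mutant, against 5740 and 6631 for the wild type, and on day 190 it was 4733 and 4520 for the mutant, against 10501 and 10477 for the wild type. The mutant was thus brighter than the wild type on both arrays on day 170 and dimmer on both on day 190, while the 2 arrays of day 120 disagreed before normalization. On the arrays of day 120 the typical clone was far dimmer in the mutant, at a median raw log2 ratio of -1.43. Without any normalization the members' median was 0.20 on day 120, 0.93 on day 170, -1.18 on day 190 and -0.32 on day 220, and 0 clones met the rule.

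Control spots give another centre. For the control spots named Y1 to Y4 the files state no intended ratio, and their mean log2 ratio was 2.03 ± 0.27 on day 120 (SD over the 4 controls), 0.24 ± 0.14 on day 150, 0.61 ± 0.23 on day 170, 0.21 ± 0.14 on day 190 and -1.15 ± 0.24 on day 220. Centred on them, the members' median became -0.57 on day 120, -0.04 on day 150, 0.78 on day 170, -1.002 on day 190 and 0.02 on day 220. All 53 members were then below 0 on day 120 and none on day 170. The median of all clones moved to -2.02 on day 120 and 1.09 on day 220. This centring shifts all clones of an array by 1 constant, so the members' distance from the typical clone is the same as before by construction.

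Spot brightness over the 33 clones spanned 14.8-fold, between the 8.74th and the 85.6th percentile of all clones, with a median at the 77.6th. The distance that defines the profile limits how far dim and bright clones can differ, so no independence from brightness can be read from them. Within that limit, the ratio correlated with brightness over the 33 clones at r = -0.48 on day 120, -0.43 on day 150, 0.07 on day 170, 0.19 on day 190 and -0.40 on day 220, as a description of clones that share arrays. The dimmer clones thus had the higher ratios on 3 of the 5 days.

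**Figure D3:**
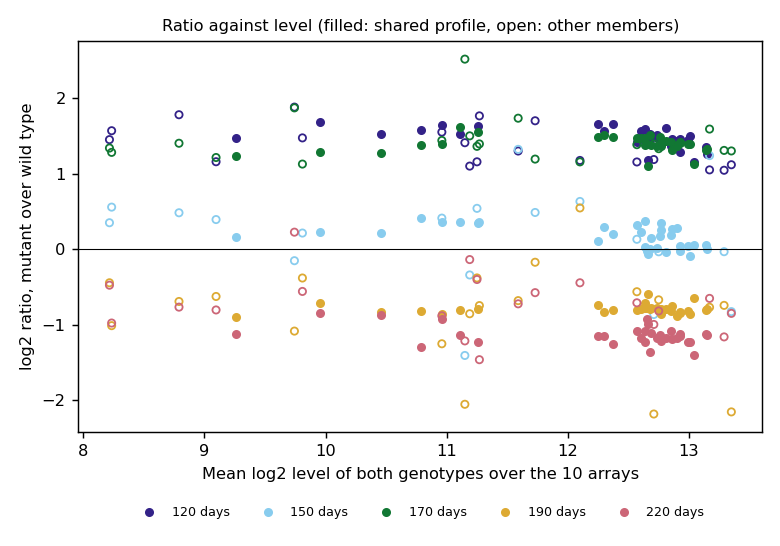
Log2 ratio of mutant over wild type (y axis) against the mean log2 level of both genotypes (x axis) for the 53 members, coloured by day, with filled points for the 33 clones of the shared profile and open points for the other members. Filled points of a day lie in a band whose height is limited by the distance of 0.3, and on days 120, 150 and 220 the ratio is lower where the level is higher (r = -0.48, -0.43 and -0.40).

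The clones of the profile came from a limited range of plates. They came from 17 plates, all between plates 30 and 54, from 26 different well positions and from 23 of the 48 printing blocks. Because 33 clones cannot fill 48 blocks, the counts of blocks and wells are a description and show no restriction. Of all 53 members, 45 came from plates 30 to 61 (84.9%), as did 52.4% of all clones kept, 112 of the 160 other clones higher on day 120 (70.0%) and 224 of the 412 other clones higher on day 170 (54.4%). The plate with the most members was plate 40, with 5. The sources used here do not say what each plate holds.

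The remaining 20 members departed from the profile in several ways. In 5 of them a single day lay beyond 0.3, and in 15 at least 2 days did. The departure was on day 220 in 14 clones, on day 150 in 10, on day 190 in 9, on day 120 in 8 and on day 170 in 3. Clones 33.B.12 and 54.H.10 had the lowest ratios on day 220, -1.46 and -1.40, the second of them within the shared profile. All 8 members from plates 1 to 29 were among these 20 clones.

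Clone 17.D.8 was the only member 2-fold lower on both arrays at all 3 of 150, 190 and 220 days. Its arrays gave 1.16 and 1.67 on day 120, -1.11 and -1.70 on day 150, 2.56 and 2.48 on day 170, -2.12 and -1.99 on day 190, and -1.26 and -1.17 on day 220. It changed sides 3 times, each time by more than 2-fold on both arrays. Its ratio on day 170 was the highest of any member.

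Clones 1.B.8 and 16.D.4 formed a pair of their own. Their means were 1.19 and 1.12 on day 120, -0.86 and -0.83 on day 150, 1.40 and 1.30 on day 170, -2.18 and -2.16 on day 190, and -0.996 and -0.85 on day 220. They differed by at most 0.15 on any day, and no other clone of the arrays lay within 0.3 of their mean profile. They were the members with the lowest ratios on day 190. In limma their means over 150, 190 and 220 days had adjusted p-values of 0.0768 and 0.0978, above the threshold of 0.05, so neither was called.

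Clones 16.H.8 and 5.E.8 were the only members also 2-fold higher on day 150. Neither was with loess within printing blocks (means of 0.72 and 0.94), in the authors' series table (0.67 and 0.93), without normalization or with centring on control spots. Clone 16.H.8 stood at 1.31 and 1.18 on the arrays of day 150, and clone 5.E.8 at 1.27 and 1.38. On day 190 their means were -0.77 and -0.68, and on day 220 -0.65 and -0.72. Both were thus higher in the mutant through 170 days and lower from 190 days on, without passing 2-fold there. Within 0.3 of their mean profile lay 6 clones of the arrays, themselves included. One of the others, 26.E.3, lay just outside the threshold on day 120, with 0.97 and 0.99.

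Clone 13.E.5 had the largest smallest ratio of the set. It stood at 2.01 and 1.76 on day 120 and at 1.73 and 2.02 on day 170. On day 190 it was 2-fold lower, with -1.04 and -1.13. On day 220 its arrays disagreed in sign, with -0.02 and 0.48, and it was the highest member there. Clone 22.A.4 was the only member above 0 on both arrays on day 190, with 0.61 and 0.49, and it stood at -0.36 and -0.53 on day 220. The next highest on day 190 was 55.E.2, with a mean of -0.17.

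At the threshold, members and other clones were close. Just inside it were 32.F.2, 16.H.8 and 38.G.10, with a smallest ratio over the 4 arrays of 1.02, 1.03 and 1.04. Just outside were 42.A.5, 37.C.4 and 26.E.3, with 0.99, 0.99 and 0.97. On day 220 the means of the clones inside were -0.14, -0.65 and -1.16, and those of the clones outside were -0.84, -0.12 and -0.62. The dimmest members were 41.B.8, 43.H.1 and 55.E.1, whose wild-type signal was not well above background on 1 of the 10 arrays, as was that of 53.D.3. For all 4 this was the array of day 220 with the mutant in Cy5. The wild-type background cut there was 822, against 215.4 on the next highest array. The other 49 members were above background in both genotypes on all 10 arrays, among them the brightest, 16.D.4, 38.G.10 and 16.H.8.

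The levels by genotype are given as a description, since the rule used the ratio of these levels on days 120 and 170. Relative to each clone's own mean, the median quantile-normalized log2 level of the members in the mutant was 1.09 on day 120, 0.22 on day 150, 0.85 on day 170, -0.64 on day 190 and -1.004 on day 220. For wild-type fruit the medians were -0.27, 0.11, -0.73, 0.20 and 0.13 at the same days. On day 170, the mutant median was above and the wild-type median below the clones' own means.

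**Figure D4:**
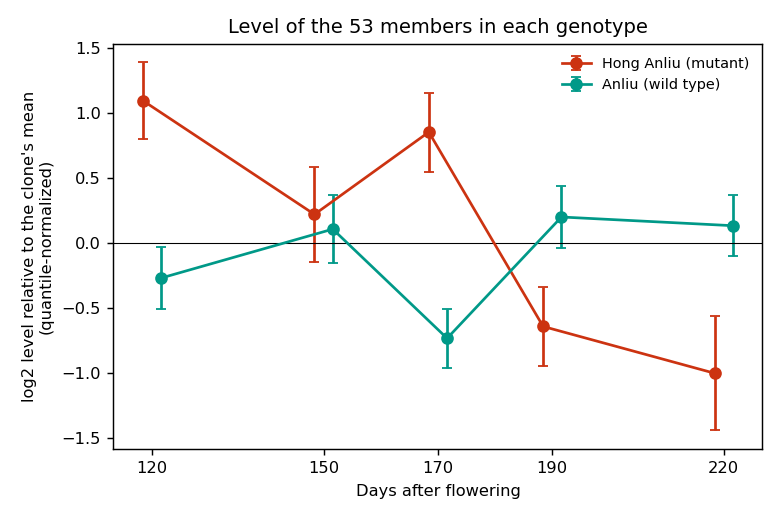
Median log2 level of the 53 members relative to each clone's own mean (y axis) at each day after flowering (x axis), for the mutant Hong Anliu and the wild type Anliu, with bars of 1 SD over the 53 clones. The mutant lies at 1.09 on day 120 and -1.004 on day 220, and the wild type is lowest on day 170, at -0.73.

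The split between genotypes depends on the labels on day 170 and on the scale. With the genotypes exchanged on day 170, the mutant medians would be 1.09, 0.22, -0.73, -0.64 and -1.004 over the successive days, and the wild-type medians -0.27, 0.11, 0.85, 0.20 and 0.13. With levels set against Y1 to Y4, the mutant medians were -0.16, -0.39, 0.62, -0.52 and -0.37, and the wild-type medians 0.78, -0.05, -0.01, 0.58 and -0.55. The wild type was then lowest on day 220 instead of day 170. Over all clones the same scale gave medians on day 120 of -1.46 for the mutant and 1.14 for the wild type. With quantile normalization they were 0.07 for the mutant and 0.02 for the wild type.

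The mean level of both genotypes fell with time in 1 called member. The rule used the ratio and not this mean, but on days 120 and 170 both come from the same intensities. The slope is thus not independent of how the members were chosen. In limma, clone 53.A.3 had a slope of -1.53 per 100 days (log2, SE 0.27, n = 5 days) with an adjusted p of 0.0317. Over 5848 clones 57 were called falling (0.975%) and 167 rising (2.86%). Without adjustment, at p under 0.05 in limma, 35 of 53 members were falling and 0 rising, against 12.4% and 10.8% of all clones. The falling members numbered 15 without day 120, against 5.2% of all clones, and 10 without day 220, against 7.44%. The median slope was -0.92 over the members and -0.08 over all clones, and 48 of 53 members had a slope below 0, against 55.7% of all clones. With levels set against Y1 to Y4 the median of the members was -0.62 and that of all clones 0.31. On that scale 0 members were called, and 1 was falling at p under 0.05 without adjustment in limma. The call of 53.A.3 was lost when 120, 170, 190 or 220 days was left out, with adjusted p in limma between 0.0791 and 0.296. It was also lost with either array of each day left out (0.103 and 0.085) and against Y1 to Y4 (0.318).

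Clone 53.A.3 belongs to the shared profile. Its level in the mutant was 12.39 on day 120, 11.12 on day 150, 11.61 on day 170, 10.14 on day 190 and 9.38 on day 220 (quantile-normalized log2). For wild-type fruit the levels were 10.79, 10.78, 10.13, 10.95 and 10.58 at the same days. Most of the fall of its mean level thus lay in the mutant, whose lowest value was that of day 220.

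The authors' table of lowess ratios, 1 linear ratio per clone and day, lists all 53 members. Of the members, 51 have a ratio in the authors' deposited table at both 120 and 170 days, and 38 have one of at least 2 at both. The median ratio of the members in the authors' deposited table was 2.35 on day 120, 1.17 on day 150, 2.64 on day 170, 0.629 on day 190 and 0.524 on day 220. The direction on each day was that of the values above.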

How the data were processed

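RNA of mutant and wild-type fruit was hybridised together on 10 dye-swapped cDNA arrays, 2 for each of 5 days, with 5 µg of total RNA per sample amplified and labelled, per the labels' protocols. The authors deposited an intensity per spot and dye, per the file headers. Some are below 0, so a background had been subtracted, by a method the files do not state. Scanner and software are not stated either. The authors also deposited a linear ratio per spot, its log2 value in the series table, and a lowess ratio per clone.

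Ratios were computed from intensities above 0 (8 to 33 clone spots per array were not), as mutant over wild type after global loess in limma 3.58.1 (R 4.3.3), where control spots had weight 0. Each clone is the mean of 3 spots. A clone counted as 2-fold different when both arrays of a day passed a log2 of 1. Clones above the 95th percentile of blank and solvent spots in either dye on at least 5 arrays were kept (5852).

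The dye-swapped arrays of a day hold the same extracts and were averaged to 1 replicate, so p-values measure only the spread between days. limma was fitted with eBayes (two-sided, Benjamini-Hochberg over all clones, threshold 0.05) to the mean ratio over 150, 190 and 220 days (2 residual degrees of freedom) and to the slope of the level on days (3 residual degrees of freedom). Levels were quantile-normalized over the 20 single channels. The fits were tested on simulated data.

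Named clones are the 5 with the largest smallest ratio at 120 and 170 days, 3 on each side of the threshold, the 2 highest and 2 lowest at each other day, those past a test, those 2-fold on all other days, and the brightest and dimmest 3. The distance of 0.3 that defines the shared profile was chosen after the values were seen. The members, lists and alternatives were chosen with earlier results of these data known.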

Additional observations from a re-analysis of the deposited data

Results flagged for a closer look

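The members' median log2 ratio was below 0 on both arrays at 190 days (-0.79) and at 220 days (-1.12), while it was above 0 on both arrays at 120 and 170 days, the days that chose them. That difference between days was not tested, and each day rests on 1 pair of extracts.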

How the results depend on the processing

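Over 167 alternatives, 72 kept a result, 75 moved a value or count, 14 lost a single clone's call and 6 turned a direction. The causes were not tested. Kept means the same direction and call, a count within 1.5-fold, or a median within the SD between arrays. The clones behind a kept count could still change: the sign turned on day 170 gave 61 members, none of the 53. Some alternatives could not change a result, such as other days' values with only day 170 turned. A member lost from a count of calls is among those moved. The rule gave 66 members with median centring, 42 with loess within printing blocks, 38 in the authors' series table, 202 at 1.5-fold, 1 at 3-fold, and 0 both without normalization and with centring on Y1 to Y4. Members 2-fold lower on day 220 numbered 9 with median centring, 14 with loess within blocks, 14 in the authors' series table, and 0 both without normalization and with control centring. Centring on Y1 to Y4 turned the members' median to -0.57 on day 120, -0.043 on day 150 and 0.023 on day 220. Without normalization it was -0.20 on day 150, and with the sign turned it was -1.39 on day 170. For the mean over 150, 190 and 220 days in limma, all clones called numbered 201 with median centring, 167 with control centring, 0 in the authors' series table (543 higher and 264 lower without adjustment) and 0 with trend and robust (559 and 144). Members called there numbered 0 with control centring, in the authors' series table, with trend and robust, and without the filter on dim clones. Leaving out a day or an array of each day gave between 37 and 710 clones and between 0 and 3 members. For the slope of the level in limma, members called numbered 4 with median scaling and 0 against controls (1 without adjustment). Leaving out a day or array gave between 0 clones (without day 120, with 397 rising and 304 falling before adjustment, and without day 220, with 554 and 435) and 566 clones (without day 150), and between 0 and 2 members. With the replicate number as a block and the day as a random block, 220 clones and 2 members were called for the mean, and 624 clones and 20 members for the slope. The number is the dye orientation, and same-numbered arrays' deviations correlated between 0.076 and 0.40, so it was not taken as a pairing. The mutant level on days 120 and 170 over the other 3 days was 1.46, with 1.69 under median scaling, 0.67 against controls and between 1.417 and 1.424 without an array. The wild-type value was -0.62, with 0.40 against controls and between -0.70 and -0.60 without an array. Signal over background limited 4 members, all on the same 1 array of day 220.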
